A study of Mus musculus with 6 samples.

Results

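The genes described are the mouse haemoglobin subunits: the adult beta-like genes Hbb-b1, Hbb-bs and Hbb-bt, the embryonic beta-like genes Hbb-y and Hbb-bh1, the adult alpha genes Hba-a1 and Hba-a2, and the embryonic alpha-like gene Hba-x. They were taken by name from a table of 21761 Entrez genes. Of the 8 genes, 6 had an entry in the table, 3 of those had a count in any library, and the same 3 passed the filter on low counts. Hbb-bt and Hba-a1 were not analysed here. RNA had been sequenced from long-term haematopoietic stem cells (LT-HSCs), which sit at the top of blood formation, in 2 genotypes with 3 libraries each and 200 cells per library. Control cells had the genotype Rosa26 +/+;Mx1-Cre tg/+ and IMP1 cells the genotype Rosa26 I/+;Mx1-Cre tg/+, in which a knock-in at Rosa26 restores the RNA-binding protein IMP1 (gene Igf2bp1) after Cre acts. In both groups donor marrow was transplanted into irradiated hosts, poly(I:C) was injected to switch on Cre, which the interferon-responsive Mx1 promoter drives, and donor cells of the phenotype CD45.2+ LSK CD150+ CD48- CD34- were sorted 8 weeks after the last injection. All cells carried Mx1-Cre, so both groups had been exposed to Cre and to poly(I:C). The labels give 3 biological replicates per genotype. The sources used here do not give age, strain or the number of mice behind a library.

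Haemoglobin, the oxygen carrier of red cells, is a tetramer of alpha-like and beta-like chains that each hold a haem group. In the mouse, Hba-x, Hbb-y and Hbb-bh1 are used in embryonic red cells, and the adult genes take over when blood formation moves to the fetal liver and then the marrow. The beta cluster is switched on by a locus control region upstream of Hbb-y and the alpha cluster by enhancers inside and beside its neighbour Nprl3. Erythroid precursors make globin in very large amounts, while stem cells are not known as a site of haemoglobin synthesis. Laboratory strains carry either the pair Hbb-b1 and Hbb-b2 or the pair Hbb-bs and Hbb-bt as adult beta genes.

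The promoters of these genes hold motifs long known from globin biology: CACCC, which KLF1 and related factors can bind, CCAAT, the GATA motif of the GATA factors, and the TATA box, searched as TATAA. RefSeq (GRCm38.p6) gave promoter sequences for 6 of the 8 genes. The 120 bases before the annotated start are shown for the adult genes that had counts and a promoter sequence, and for the embryonic genes at 0, to set used and unused promoters side by side. Capitals mark the motifs on either strand, and no motif overlaps another in these windows. The windows are chr7:103827929-103828048 on the minus strand for Hbb-bs, chr11:32296372-32296491 on the plus strand for Hba-a2, chr7:103853208-103853327 on the minus strand for Hbb-y and chr11:32276480-32276599 on the plus strand for Hba-x.
Hbb-bs: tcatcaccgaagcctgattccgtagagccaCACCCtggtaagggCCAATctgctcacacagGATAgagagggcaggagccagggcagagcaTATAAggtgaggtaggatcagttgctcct
Hba-a2: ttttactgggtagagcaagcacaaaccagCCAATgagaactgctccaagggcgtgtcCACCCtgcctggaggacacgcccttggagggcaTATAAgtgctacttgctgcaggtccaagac
Hbb-y: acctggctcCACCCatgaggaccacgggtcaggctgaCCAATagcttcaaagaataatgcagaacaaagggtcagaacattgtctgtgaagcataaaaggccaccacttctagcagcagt
Hba-x: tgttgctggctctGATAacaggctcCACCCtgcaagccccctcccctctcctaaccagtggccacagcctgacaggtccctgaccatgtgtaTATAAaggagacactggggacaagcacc
All 4 windows hold CACCC, which 31.7% of the 32851 promoter windows of this length in the table hold. CCAAT is present in Hbb-bs, Hba-a2 and Hbb-y (21.3% of all windows), the GATA motif in Hbb-bs and Hba-x (29.5%) and TATAA in Hbb-bs, Hba-a2 and Hba-x (11.8%). The KLF1 motif comes before the CCAAT box in Hbb-bs and Hbb-y and after it in Hba-a2. A window with both of these motifs is found in 6.23% of all windows. These matches are descriptions of letters.

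The libraries differed in depth by genotype. Control libraries held between 25749898 and 27338450 counts and IMP1 libraries between 50220629 and 67083116, on average 2.26 times as many. Levels are therefore given as counts per 1e6 counts (CPM) after scaling by the trimmed mean of M values (TMM), beside the raw counts. Igf2bp1 was at 1870, 2084 and 2016 counts in IMP1 1, 2 and 3 and at 0, 0 and 1 in Control. All 15 LT-HSC markers on a list, among them Procr, Slamf1, Hlf and Mecom, had counts in all 6 libraries, with summed levels of 3606 to 3665 CPM in Control and 3486 to 4087 CPM in IMP1. IMP1 1 stood apart by red cell transcripts and by the granulocyte markers Ngp and Ltf, described below. The fold changes of Hba-a2 and of the summed globin level are given with and without it. For each globin gene with counts, the mean of IMP1 2 and IMP1 3 is also set against Control. Other group means include IMP1 1. IMP1 2 stood apart by lymphocyte transcripts: Cd79a, a signalling chain of the B cell receptor, had 1170 counts there and at most 1 in any other library, and Ebf1, a B lineage transcription factor, had 986 there and at most 6 elsewhere. Of 12 lymphocyte markers in the table (13 listed), 7 had a count in IMP1 2 and 4 to 6 in the other libraries, and Pax5 and Ms4a1 were at 0 in all. The list summed to 73.3 to 89.8 CPM in Control and to 90.9, 149 and 128 CPM in IMP1 1, 2 and 3, most of it from Cd79b, and Cd4 had 315 counts in IMP1 3 alone. Without IMP1 2 the log2 fold change was 1.92 for Hbb-b1 and 1.75 for Hbb-bs.

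Adult beta-globin RNA was higher in every IMP1 library than in every Control library, adult alpha-globin RNA was high in 1 IMP1 library alone, and embryonic globin RNA was not counted in any library. These genes were selected on this contrast: the family was chosen by the higher level of Hbb-b1 in IMP1 cells, which was already known. Their differences between the genotypes are therefore given as a description, without p-values. At an adjusted p under 0.05 (edgeR, Benjamini-Hochberg over all genes), 1 of the 3 tested globin genes was called, where 0.211% of the 12807 genes tested were called in either direction and 0.0703% were called higher. All 3 IMP1 values lay above all 3 Control values for 2 of the 3, against 10.7% of all tested genes. These 2 are Hbb-b1, on which the choice rested, and Hbb-bs, which cannot be treated as a separate measurement. The shares therefore lend no support of their own. In bulk RNA, a change in the number of cells that hold a transcript and a change in the amount per cell cannot be told apart.

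Hbb-b1, an adult beta-globin gene (Entrez gene 15129), had 477, 343 and 482 counts in Control 1, 2 and 3, and 4865, 4153 and 2675 in IMP1 1, 2 and 3. As normalised levels these were 17.9, 13.6 and 19.3 CPM in Control and 76.4, 59.9 and 51.5 CPM in IMP1. The groups did not overlap, and the lowest IMP1 library was 2.67 times the highest Control library. Group means were 16.9 ± 2.99 CPM in Control and 62.6 ± 12.6 CPM in IMP1 (SD, n = 3), a 3.70-fold difference and a fitted log2 fold change of 1.89 (SE 0.26). The call of Hbb-b1 was held in 6 of 14 alternative settings and in 0 of the 6 fits that left out 1 library, while its log2 fold change stayed between 1.72 and 2.01. After every library was thinned at random towards the smallest total, Hbb-b1 had 449, 334 and 482 counts in Control and 1981, 1642 and 1338 in IMP1, so the order of the groups was the same at matched depth.

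Hbb-bs, the adult beta-globin gene of the other haplotype pair (Entrez gene 100503605), showed the same order of libraries in the IMP1 group at a lower level. Its counts were 341, 204 and 258 in Control 1, 2 and 3, and 2826, 2180 and 1331 in IMP1 1, 2 and 3. Its levels were 12.8, 8.07 and 10.3 CPM in Control and 44.4, 31.5 and 25.6 CPM in IMP1. The groups again did not overlap, with the lowest IMP1 value 2.00 times the highest Control value. Means were 10.4 ± 2.37 and 33.8 ± 9.58 CPM (SD, n = 3), a log2 fold change of 1.70 (SE 0.34). Over the 14 alternatives it ranged from 1.46 to 1.88.

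The split between the 2 beta genes changed little from library to library. Hbb-b1 made up 58.3%, 62.7% and 65.1% of the beta counts in Control and 63.3%, 65.6% and 66.8% in IMP1, and the groups overlapped. Together the beta genes averaged 27.3 ± 4.96 CPM for Control and 96.4 ± 22.2 CPM for IMP1 (SD, n = 3). The 2 genes cannot be treated as separate measurements. The transcripts of the related pair Hbb-bs and Hbb-bt share 65.8% of the 50-base windows of Hbb-bs in GENCODE M21, the sources used here do not say how reads matching more than 1 gene were counted, and entries from both haplotype pairs held counts in every library.

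Hba-a2, an adult alpha-globin gene (Entrez gene 110257), behaved differently from the beta genes. It had 224, 193 and 22 counts in Control and 6161, 198 and 151 in IMP1. Its levels were 8.42, 7.64 and 0.881 CPM for Control, and 96.7, 2.86 and 2.91 CPM for IMP1. IMP1 1 was 11.5 times the next highest library, while IMP1 2 and IMP1 3 lay between Control 3 and the other Control libraries. The group means of 5.64 ± 4.14 and 34.2 ± 54.2 CPM (SD, n = 3) are therefore set by 1 library, and the SD of the IMP1 group exceeded its mean. The fitted log2 fold change was 2.60 (SE 1.42) with all libraries and −0.97 without IMP1 1. Of the 50-base windows of the Hba-a2 transcript, 86.9% are also in Hba-a1, so reads of these copies may not be separable.

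**Figure D1:**
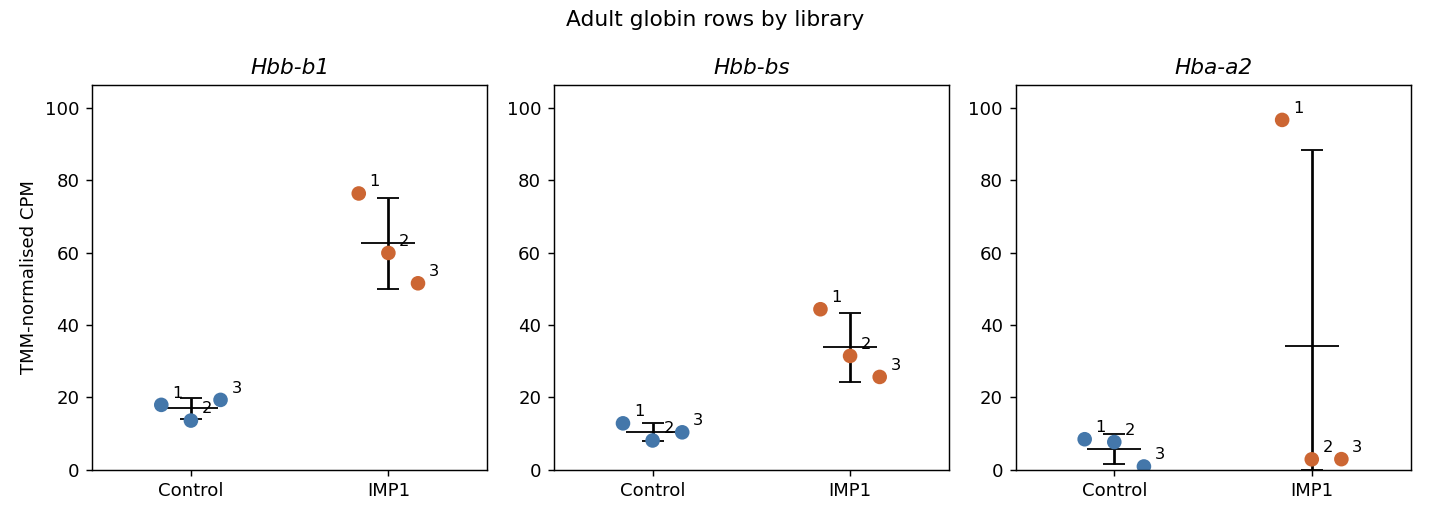
Levels of Hbb-b1, Hbb-bs and Hba-a2 in TMM-normalised CPM (vertical axis) in the Control and IMP1 groups (horizontal axis). Each point is 1 library with its replicate number, the horizontal line is the group mean and the bars are 1 SD, drawn no lower than 0. Both beta genes are higher in all 3 IMP1 libraries, whereas Hba-a2 is at 96.7 CPM in IMP1 1 and at 2.86 and 2.91 CPM in IMP1 2 and 3.

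The balance of beta to alpha counts varied between libraries within both genotypes. It sets 2 beta entries against Hba-a2 alone. Hba-a1 shares 86.9% of the 50-base windows of Hba-a2, and how shared reads were counted is not given. The balance is therefore one of these entries, not of all beta and alpha RNA. There were 3.65, 2.83 and 33.6 beta counts for each Hba-a2 count in Control 1, 2 and 3, and 1.25, 32.0 and 26.5 in IMP1 1, 2 and 3. The groups overlapped, with Control 3, IMP1 2 and IMP1 3 at the beta-rich end and IMP1 1 at the other end. Per kilobase of transcript (628 bases for Hbb-bs and 554 for Hba-a2 in GENCODE M21), Hbb-bs stood above Hba-a2 in Control 3, at 16.4 against 1.59 CPM per kilobase, and in IMP1 2, at 50.1 against 5.16, and IMP1 3, at 40.8 against 5.25. In IMP1 1 the order was reversed, with Hbb-bs at 70.6 and Hba-a2 at 175 CPM per kilobase. In Control 1 and 2 the genes were close, at 20.4 and 12.9 for Hbb-bs and 15.2 and 13.8 for Hba-a2.

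The embryonic genes Hba-x, Hbb-y and Hbb-bh1 had 0 counts in all 6 libraries. A count of 0 allows up to 0.120 CPM in the Control library of lowest scaled depth and up to 0.0433 CPM in the deepest IMP1 library, taking 3 counts as the limit, which covers counting error only. No 50-base window of Hbb-bs is shared with Hbb-y or Hbb-bh1 (0%), and none of Hba-a2 with Hba-x (0%), so at that length reads of these pairs are distinct. Hbb-b1 was not compared in this way. Of 10 other globin genes on a list, 6 were in the table. Hbb-bh2, the theta-like genes Hbq1a and Hbq1b, and the cytoglobin gene Cygb had 0 counts throughout. Ngb, which encodes neuroglobin, had 1 count, in IMP1 3, and Mb, which encodes myoglobin, had 169 counts in IMP1 2 and 0 elsewhere.

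The 3 genes with counts summed to 39.1, 29.3 and 30.5 CPM in Control and 217, 94.2 and 80.1 CPM in IMP1. In raw terms this was between 0.281 and 0.381 counts in each 10000 in Control and between 0.828 and 2.24 in IMP1. The ratio of group means was 3.96, a log2 ratio of 1.99, and 1.40 without IMP1 1. Beta genes made up 78.5%, 73.9% and 97.1% of the counts of these 3 genes in Control and 55.5%, 97.0% and 96.4% in IMP1. The groups did not overlap in the summed level with or without IMP1 1.

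Many red cell markers, but not all, were highest in IMP1 1, as Hba-a2, Hbb-b1 and Hbb-bs were. Of 22 red cell precursor markers in the table (23 listed), 13 had their highest level in IMP1 1, and all 22 had a count there, against 12 to 14 in the Control libraries, 16 in IMP1 2 and 14 in IMP1 3. Of the other markers, 3 were highest in IMP1 2 and 2, 3 and 1 in Control 1, 2 and 3. The summed level of the list was 321 to 463 CPM in Control, 650.3 CPM in IMP1 1, 354 CPM in IMP1 2 and 341 CPM in IMP1 3. Much of that sum comes from Hemgn and Gypc, which Control LT-HSCs also held, so the 10 markers under 1 CPM in every Control library are given separately, a set formed after the values were seen. They summed to between 0.435 and 1.16 CPM in Control, 219 CPM in IMP1 1, 8.08 CPM in IMP1 2 and 19.4 CPM in IMP1 3. The limit itself keeps the Control sum low, so the gap to Control is in part set by the selection.

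Among those markers, Car1, the carbonic anhydrase of early erythroid cells, had 9341 counts in IMP1 1, 3 in IMP1 2 and 754 in IMP1 3, and 0, 1 and 0 in Control. Kel and Tspo2 were at 0 in all libraries but IMP1 1, where they had 353 and 316 counts. Of the 10 markers, 4 were at 0 counts in IMP1 2 and 5 in IMP1 3, against 7 in each Control library. Kel, Tspo2 and Trim10 were at 0 in both IMP1 2 and IMP1 3. Car1, Ank1, Alas2 and Ermap were above every Control library in both, in part by small margins at low counts. Car1 in IMP1 2 was at 0.0433 CPM, the limit taken for a count of 0 there, against at most 0.0396 CPM in Control. The set was picked for low Control levels. Over all tested genes, all 3 IMP1 values lay above all 3 Control values for 10.7%. Ank1 was at 4.40 and 0.173 CPM in IMP1 2 and IMP1 3 (at most 0.150 in Control) and Alas2 at 2.53 and 1.37 CPM (at most 0.480). Ermap was at 0.649 and 3.31 CPM (at most 0.640). In IMP1 2 and IMP1 3, the mean level of Hbb-b1 was 3.29 times and that of Hbb-bs 2.74 times the Control mean, and that of Hba-a2 0.511 times. Slc4a1, the anion exchanger of mature red cells, had 52 counts in Control 1, 1 in IMP1 1 and 0 in the others.

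Some other red cell markers had lower values in IMP1 libraries, IMP1 1 included, though none of those named here was called. Icam4, an adhesion protein of the red cell surface, averaged 33.4 ± 7.01 CPM over Control libraries and 19.0 ± 0.645 CPM over IMP1 libraries (SD, n = 3, edgeR adjusted p = 0.229). Aqp1, a water channel, stood at 10.3 ± 3.59 and 3.48 ± 1.12 CPM (edgeR adjusted p = 0.249). For both genes all IMP1 values lay below all Control values, and for 2 of the 11 tested markers they lay above. Here and below, the share of all genes in the downward direction is not given. The upward share was 10.7%. Epor, the erythropoietin receptor, was at 15.8 ± 6.28 and 11.3 ± 3.12 CPM, with overlapping groups.

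Granulocyte and macrophage markers also differed between libraries, in both directions. The 15 on the list summed to 733 to 862 CPM in Control and to 1167, 852 and 520.3 CPM in IMP1 1, 2 and 3. S100a8, which encodes a calcium-binding protein of neutrophils, had 252, 304 and 131 counts in Control and 15449, 11821 and 594 in IMP1, and its partner S100a9 had 52, 113 and 31 against 12013, 7328 and 245. Ngp had 55, 65 and 215 counts in Control and 10959, 748 and 220 in IMP1, and Ltf had 5, 0 and 0 against 2943, 146 and 0. Mpo, the myeloperoxidase of granules, had 673, 187 and 9 counts in Control and 2, 0 and 0 in IMP1. Lyz2, a lysozyme, stood at 463 ± 45.9 against 288 ± 23.0 CPM (edgeR adjusted p = 0.0614) and Prtn3, a granule protease, at 258 ± 33.3 against 206 ± 7.30 CPM (edgeR adjusted p = 0.287), with all IMP1 values below all Control values for both. The part of red cell, granulocyte and lymphocyte transcripts in the globin values was not tested.

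**Figure D2:**
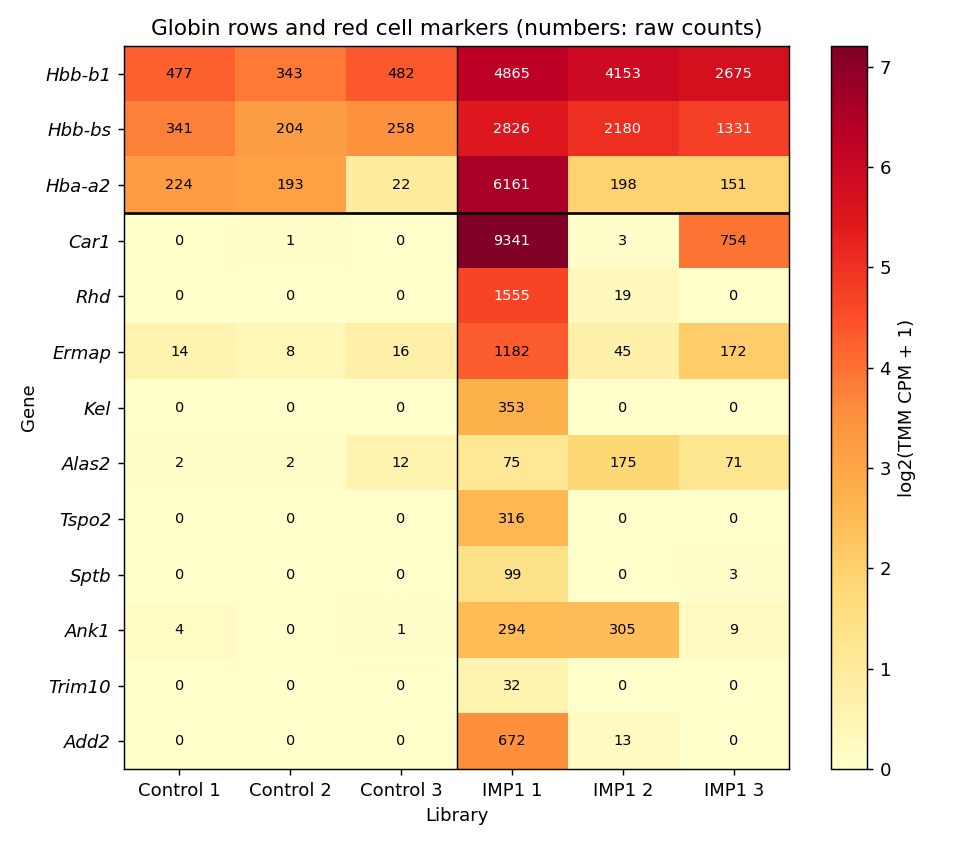
Globin genes (above the line) and the 10 red cell markers under 1 CPM in every Control library (below it), with libraries along the horizontal axis. Colour is log2 of TMM-normalised CPM plus 1 and the printed numbers are raw counts. IMP1 1 holds counts of all 10 markers and 6161 of Hba-a2. IMP1 2 and 3 hold 4153 and 2675 counts of Hbb-b1. The 10 markers sum to 8.08 CPM in IMP1 2 and 19.4 CPM in IMP1 3, against at most 1.16 CPM in Control. The limit that picked the markers keeps the Control sums low.

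**Figure D3:**
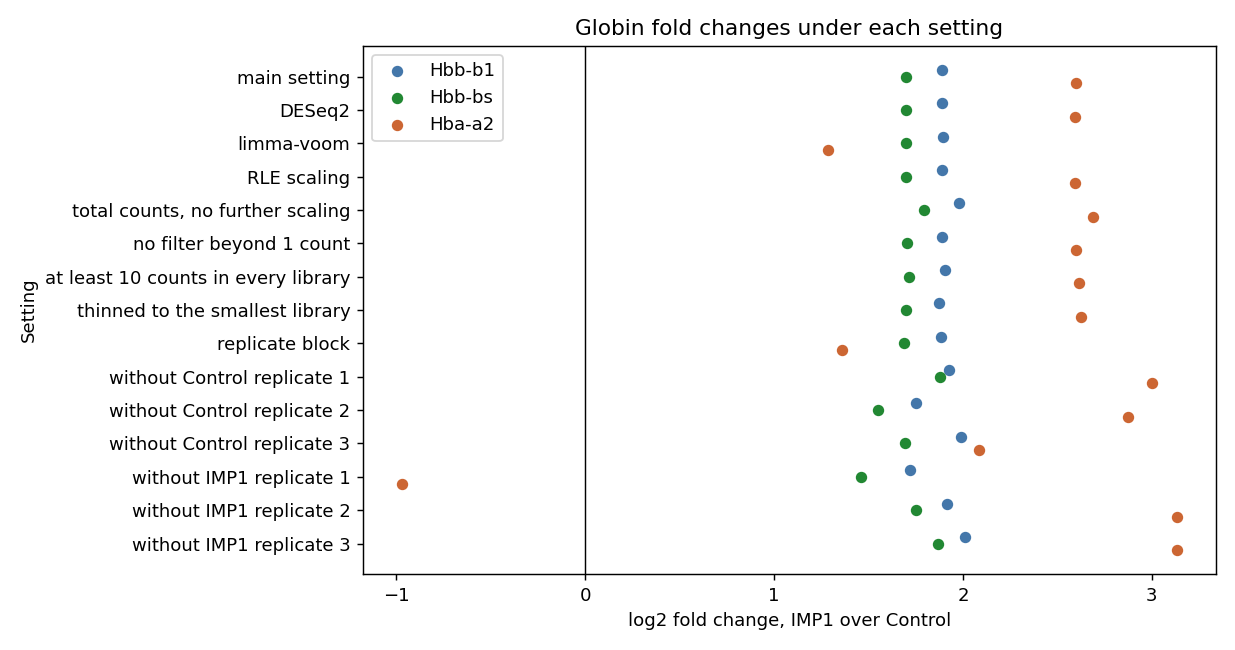
Log2 fold change of IMP1 over Control (horizontal axis) for each globin gene under the main setting and 14 alternatives (vertical axis). Hbb-b1 stays between 1.72 and 2.01 and Hbb-bs between 1.46 and 1.88, whereas Hba-a2 falls to −0.97 without IMP1 replicate 1.

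By likeness of profile, measured as the root mean square difference of log2 CPM after centring each gene over the 6 libraries, Hbb-bs was the third closest of 12806 genes to Hbb-b1, with a difference of 0.17. Gstcd (0.11) and Scn2b (0.16) were closer. Gstcd levels were 2.37, 1.62 and 2.24 CPM for Control, and 8.46, 7.46 and 7.13 CPM for IMP1. For Hbb-bs the closest were Scn2b (0.13), Hbb-b1 (0.17) and Gstcd (0.20). Hba-a2 ranked 11742nd from Hbb-b1, with a difference of 1.94. The genes closest to Hba-a2 were Zfp420 (0.90), Epb42 (0.94), which encodes a red cell membrane protein, and Sema6a (0.98), none of them near. Epb42 stood at 8.40 CPM in IMP1 1 and at most 1.46 CPM elsewhere.

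The factors that act on the globin loci were all detected, and edgeR called none. They ranged from scarce, as Ssbp4 at 2.98 ± 0.158 against 3.84 ± 1.36 CPM, to abundant, as Gata2. Of 19 genes for activators and their partners, 19 were tested, 10 had positive and 9 negative log2 fold changes, and the median was 0.09, beside 0.03 over all genes. By edgeR 0 were called, 5 had an unadjusted p under 0.05 (3 higher and 2 lower, where 14.3% of all genes reached it), DESeq2 called Nfe2 alone and limma-voom 0. Over all genes DESeq2 called 6.42% and limma-voom 0.0859%, so 1 of 19 is near the DESeq2 background. Gata2, a stem cell GATA factor, stood at 435 ± 22.7 against 418 ± 53.6 CPM (Control against IMP1, SD, n = 3). Lmo2, which bridges GATA and TAL1 proteins, was at 414 ± 41.7 and 541 ± 76.7 CPM (log2 fold change 0.39, edgeR adjusted p = 0.244). Nfe2, a partner of small Maf proteins at the locus control region, stood at 415 ± 45.7 and 309 ± 35.4 CPM (−0.43, edgeR adjusted p = 0.197), with all IMP1 values below all Control values.

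Gata1 and Klf1, outside the naming rule, are given as the main erythroid activators. Gata1 varied mostly within the IMP1 group, and Klf1 varied widely within both groups. Gata1 levels were 106, 90.5 and 70.9 CPM for Control, and 82.0, 10.9 and 24.6 CPM for IMP1, so it was lowest in IMP1 2 and IMP1 3. Klf1 levels were 13.5, 3.64 and 2.88 CPM for Control, and 19.0, 1.57 and 5.59 CPM for IMP1. For both genes the groups overlapped. Neither was higher in IMP1 2 or IMP1 3 than in all Control libraries, the libraries in which Hbb-b1 was at 59.9 and 51.5 CPM.

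Genes for repressors of embryonic globin were also all detected, and edgeR called none. All 24 were tested, 13 positive and 11 negative, with a median of 0.10. By edgeR, DESeq2 and limma-voom 0 were called, and 3 had an unadjusted edgeR p under 0.05, all lower. Over all 12807 genes 14.3% reached it, 854 of them higher and 977 lower. Rbbp7 and Hdac1, which belong to the NuRD complex, were the most abundant, at 412 ± 39.2 against 482 ± 42.2 CPM and 327 ± 18.8 against 254 ± 46.6 CPM. Gatad2a, another NuRD subunit, had the lowest p, at 80.8 ± 6.94 against 57.1 ± 5.04 CPM (−0.50, edgeR adjusted p = 0.246). Bcl11a and Sox6, named outside the rule as the best known silencers of embryonic globin, stood at 193 ± 34.6 against 241 ± 36.0 CPM and 59.8 ± 15.1 against 40.7 ± 2.03 CPM, with edgeR adjusted p of 0.458 and 0.333.

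No gene of haem synthesis or iron supply was called by edgeR, although Alas2 and Tfrc had higher means in IMP1 cells. Of 29 listed genes, 28 were in the table and tested, 18 positive and 10 negative, with a median of 0.09. By edgeR 0 were called, and 5 had an unadjusted p under 0.05 (4 higher and 1 lower), where 14.3% of all genes reached it. DESeq2 called Tfrc alone, a share of the list below the 6.42% it called over all genes, and limma-voom called 0. Tfrc, the transferrin receptor that brings iron into cells, had levels of 23.2, 13.4 and 37.7 CPM for Control and 69.5, 36.2 and 73.9 CPM for IMP1 (log2 fold change 1.27, SE 0.42, edgeR adjusted p = 0.239). The groups overlapped, since IMP1 2 lay below Control 3. Alas2, the first haem enzyme of erythroid cells and outside the naming rule, had 2, 2 and 12 counts in Control and 75, 175 and 71 in IMP1. Its level was 0.212 ± 0.233 against 1.69 ± 0.729 CPM (2.98, SE 1.08, edgeR adjusted p = 0.275), and it did not overlap between the groups. All IMP1 values lay above all Control values for 3 of the 28 tested genes of this list, near the share of 10.7% over all genes. Alas2 was highest in IMP1 2. Urod, a later enzyme of the pathway, stood at 125 ± 19.8 and 95.3 ± 4.64 CPM (−0.40, edgeR adjusted p = 0.305). The most abundant genes, Isca1 of iron-sulphur cluster assembly and Pgrmc1, a haem-binding protein, stood at 189 ± 11.9 against 146 ± 30.8 CPM and at 158 ± 27.8 against 199 ± 35.3 CPM.

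Genes of haem breakdown, haem export and iron storage were described likewise. Of 15 listed genes 12 were tested, 5 positive and 7 negative, with a median of −0.10. By edgeR 0 were called, and 3 had an unadjusted p under 0.05 (1 higher and 2 lower), where 14.3% of all genes reached it. Limma-voom called 0, and DESeq2 (6.42% of all genes) called Hp, the haptoglobin gene, which had 0 counts in Control and 219, 192 and 0 in IMP1. The ferritin genes Ftl1 and Fth1 were the most abundant, at 2486 ± 99.0 against 2366 ± 45.99 CPM and 1914 ± 161 against 2046 ± 93.2 CPM. Slc48a1, a haem transporter, stood at 171 ± 19.1 and 108 ± 30.3 CPM (−0.66, edgeR adjusted p = 0.230). Flvcr2, of a family that moves haem and choline, had 0, 7 and 1 counts in Control and 162, 50 and 25 in IMP1 (3.53, edgeR adjusted p = 0.320).

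**Figure D4:**
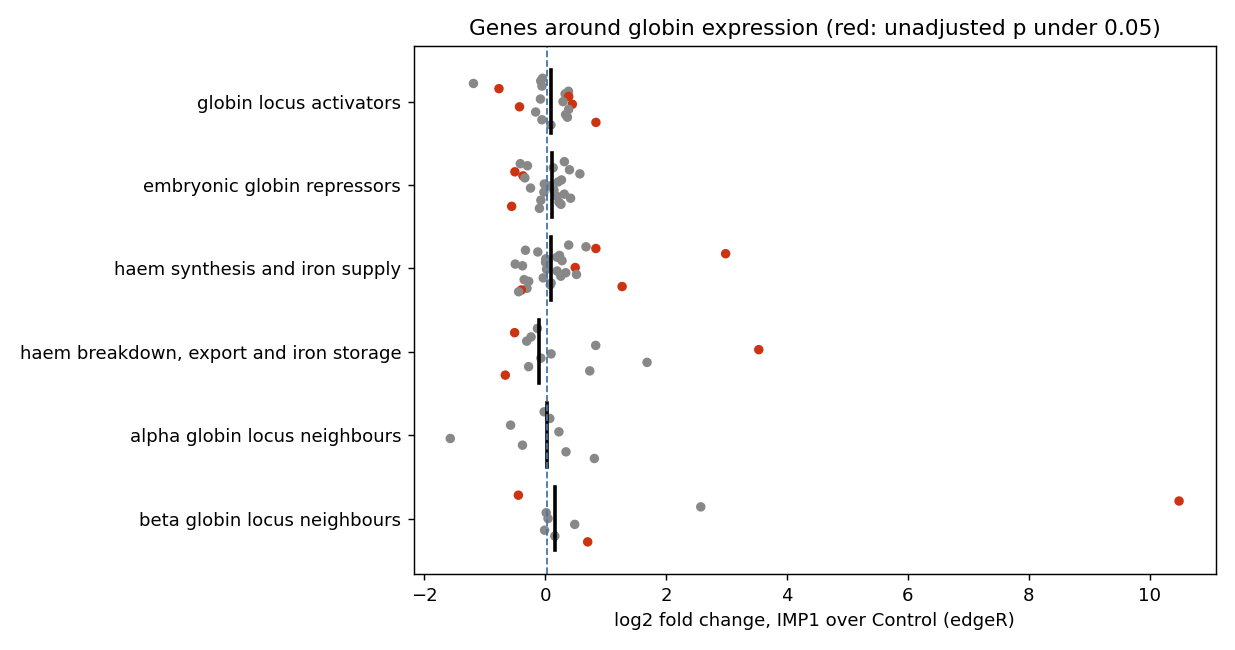
Log2 fold change of IMP1 over Control (horizontal axis) for each tested gene of 6 lists (vertical axis). Black bars are list medians, the dashed line is the median of all genes tested (0.03) and red points have an unadjusted p under 0.05. List medians lie between −0.10 and 0.16, and the point farthest to the right is Olfr632.

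Next to the alpha genes, 8 of 9 neighbours were tested, 4 positive and 4 negative, with a median of 0.03. By edgeR, DESeq2 and limma-voom 0 were called, and 0 had an unadjusted edgeR p under 0.05, where 14.3% of all genes reached it. Snrnp25, which encodes a subunit of the minor spliceosome, and Fbxw11, which encodes a ubiquitin ligase subunit, were the most abundant, at 50.7 ± 7.62 against 39.1 ± 4.54 CPM and 46.9 ± 4.73 against 46.3 ± 6.61 CPM. Nprl3, the gene that holds alpha enhancers and is outside the naming rule, was at 20.6 CPM in IMP1 1, the library with the highest Hba-a2, and between 26.8 and 53.4 CPM in the others. Ubtd2 was at 23.2 CPM in IMP1 1 and at most 7.93 CPM elsewhere. Sh3pxd2b, an adaptor protein gene, stood at 15.3 ± 2.41 and 5.16 ± 4.45 CPM (−1.57, edgeR adjusted p = 0.352).

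Near the beta genes, olfactory receptor genes beyond Hbb-y, which encode odorant receptors of the nose, held counts in IMP1 libraries that Control libraries lacked. Of 17 neighbours with an entry, 9 were tested, 7 positive and 2 negative, with a median of 0.16. By edgeR 0 were called and 3 had an unadjusted p under 0.05 (2 higher and 1 lower), where 14.3% of all genes reached it. Limma-voom called 0, and DESeq2 called Olfr631, Olfr632 and Trim6, where it called 6.42% of all genes. Olfr632 was counted 210, 430 and 146 times in IMP1 1, 2 and 3 and 0 times in Control (edgeR adjusted p = 0.0699). Against a limit of 3 counts over the Control group its IMP1 mean was 105-fold higher. That limit covers counting error only, so the ratio is no lower bound for the difference between groups. Olfr631, which did not pass the filter, had 0, 0 and 0 against 9, 457 and 493 counts, and Olfr65 had 0, 0 and 30 against 0, 297 and 150. Between Hbb-y and these genes, Olfr66 and Olfr64 had at most 1 count in any library. Summed over Olfr65, Olfr631 and Olfr632, the IMP1 library with the fewest counts was IMP1 1, which had the most beta-globin. Of the more distant neighbours, Ilk was the most abundant, at 292 ± 9.46 against 215 ± 37.0 CPM (−0.44, edgeR adjusted p = 0.218), followed by Trim34a at 191 ± 11.4 against 214 ± 49.5 CPM. Counts on olfactory receptor genes depend on annotation and strand handling, which the sources used here do not give.

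**Figure D5:**
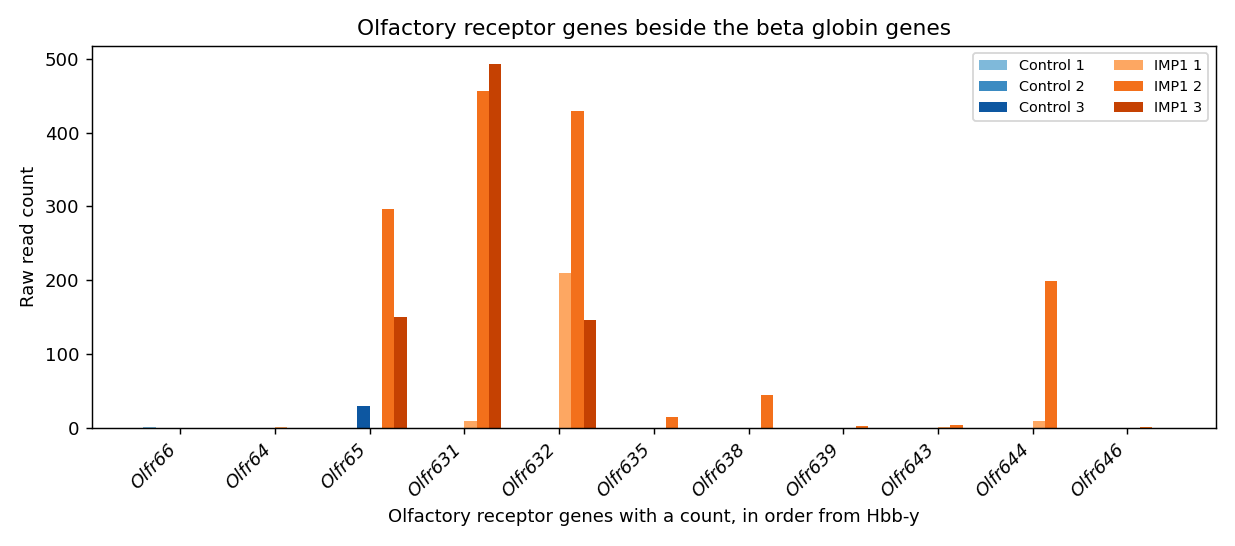
Raw read counts (vertical axis) in each library for the olfactory receptor genes with a count between Hbb-y and Ubqln5, in their order from Hbb-y (horizontal axis). Bars are single libraries, blue for Control and orange for IMP1. Olfr631, Olfr632 and Olfr644 have 0 counts in all Control libraries and at least 100 summed over the IMP1 libraries. Olfr64, Olfr635, Olfr638, Olfr639, Olfr643 and Olfr646 are also at 0 in all Control libraries, with fewer counts in IMP1.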

How the data were processed

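RNA was measured in 6 libraries of sorted LT-HSCs, 3 Control and 3 IMP1. The SMARTer Ultra Low RNA kit was used, and it has no molecular identifiers. The file that the authors deposited holds raw counts of reads for each Entrez gene, with 1 column per library, per the file headers, and 0 columns were left unmatched. TopHat2 2.0.10 and mm9 are listed, per the submitters' processing notes, without a role. Counting program, strand setting and annotation: not given in the sources used here. Symbols came from RefSeq GRCm38.p6 by Entrez identifier (21615 of 21761), and promoter coordinates are those of that build and were not combined with mm9.

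Counts were fitted with edgeR 4.0.16 (quasi-likelihood F test, TMM scaling, filterByExpr) in R 4.3.3, genotype as the single term, with Benjamini-Hochberg adjustment over 12807 genes at a threshold of 0.05. SE was obtained as the size of the log2 fold change over the square root of the F statistic. The likeness measure used a prior count of 2. The fit was tested on simulated data. Alternatives were DESeq2 1.42.0, limma-voom (limma 3.58.1), other scalings and filters, thinning, a replicate block and each library left out.

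The globin genes and all lists were chosen with earlier results of these data known. Named were all globin genes and, per list, called members, the 2 most abundant, and the lowest p in each direction. Others are marked, or, for the red cell, granulocyte and lymphocyte markers, the olfactory receptor genes and genes called by other tools alone, were named after their values were seen. A red cell and a lymphocyte marker of the original lists are not reported here. Libraries were no duplicates (chi-square per degree of freedom at least 61.0), but nothing shows that separate mice gave each library, so p-values measure the spread between these libraries.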

Additional observations from a re-analysis of the deposited data

How the results depend on the processing

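Hbb-b1 and Hbb-bs kept a positive log2 fold change in all 14 alternatives, and Hba-a2 in 13 of 14. Without single libraries the fold change ranged from 1.72 to 2.01 for Hbb-b1, from 1.46 to 1.88 for Hbb-bs and from −0.97 to 3.13 for Hba-a2, whose sign turned without IMP1 1. The summed globin log2 ratio ranged from 1.40 (without IMP1 1) to 2.24. The number of genes called over the whole table was 27 in the main setting, 880 with DESeq2, 11 with limma-voom, 16 with total-count scaling, 103 with at least 10 counts required in every library, and 0 to 2 without single libraries (0 without Control 3, where 1627 genes had an unadjusted edgeR p under 0.05). Calls were 9 higher and 18 lower with TMM and 9 and 7 with total-count scaling. With DESeq2, 1 gene was called among activators, 1 in haem synthesis, 1 in haem breakdown and 3 among beta neighbours, and with limma-voom and in every edgeR setting 0 were called in these lists. The replicate numbers did not pair the samples (correlations of deviations −0.01 to 0.03), and with the replicate number as a block 4 genes were called. The cause of these differences was not tested. Depth differed with genotype and no label gives a batch, so depth and genotype cannot be told apart. Thinning moved the summed log2 ratio from 1.99 to 1.98.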

Other observations

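The olfactory receptor counts near the beta-globin genes were looked at more widely after their values were seen. Of 16 olfactory receptor genes in the table between Hbb-y and Ubqln5, 11 had a count in any library, and the 16 together held 31 counts over the Control libraries and 2469 over the IMP1 libraries. Of these 16 genes, 3 (Olfr631, Olfr632 and Olfr644) had 0 counts in Control and at least 100 in IMP1, against 2 of the 1097 olfactory receptor genes elsewhere and 207 of all 21761 genes. The olfactory receptor genes elsewhere held 9640 counts in Control and 22090 in IMP1, close to the 2.26-fold difference in depth. Olfr644 had 9, 199 and 0 counts in IMP1 1, 2 and 3, Olfr638 had 45 and Olfr635 had 14, both in IMP1 2 alone. Over the whole table, 3 genes were at 0 in every Control library and at 100 or more counts in every IMP1 library, of which Olfr632 was 1, and 2 genes showed the opposite pattern. The stretch was chosen for its counts, so no test is given.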
